A study of Mus musculus and Acomys cahirinus with 18 samples.

Results

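The genes described here encode enzymes that conjugate, hydrolyse, oxidise or reduce drugs, hormones and reactive aldehydes: UDP-glucuronosyltransferases (Ugt), glutathione S-transferases (Gst and the microsomal Mgst), sulfotransferases (Sult), carboxylesterases (Ces), aldehyde dehydrogenases (Aldh), aldo-keto reductases (Akr) and flavin monooxygenases (Fmo). They were taken by gene symbol alone, as every entry of the authors' 4 deposited tables whose symbol carries one of these family names followed by a digit (for Gst, with a class letter between). That gave 67 genes of the 6384 symbols in the tables. In mouse 61 were listed on at least 1 day and in Acomys 13, of which 7 were listed in both species. All 7 were shared on day 5, where the species had 1011 listed symbols of any kind in common.

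A glucuronosyltransferase, a glutathione transferase or a sulfotransferase joins a polar group to its substrate, which makes the product easier to excrete in urine or bile. Carboxylesterases cut esters and some also hydrolyse stored lipid. Aldehyde dehydrogenases and aldo-keto reductases clear aldehydes, and several of them are dedicated steps of amino acid, folate, carnitine or retinoid metabolism. In the kidney many of these enzymes are abundant in the proximal tubule, the segment that takes up and secretes organic compounds.

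Whole kidney RNA was sequenced in wild type adult males of C57BL/6 mice and of the spiny mouse Acomys cahirinus, after the left ureter had been closed for 2 or 5 days (unilateral ureteral obstruction, in which urine backs up and injures the kidney) or after a sham operation. Each of the 6 groups held 3 libraries, with animals of 7.0 to 14.0 weeks in mouse sham, 10.1 weeks on mouse day 2, 10.1 to 14.0 weeks on mouse day 5, 9.9 to 14.3 weeks in Acomys sham, 10.3 to 14.3 weeks on Acomys day 2 and 9.9 to 10.4 weeks on Acomys day 5. All kidneys were perfused with cold saline and flash frozen. The values come from the authors' comparisons, each of which set the obstructed kidneys of one species on one day against that species' sham kidneys. Each listed gene has a log2 fold change, a mean expression over the fit (logCPM, on the log2 scale) and a false discovery rate (FDR), and the authors' deposited tables hold entries at FDR under 0.05 only. Values per library, their spread and their depth were not analysed here, and both days of a species were set against the same sham libraries. Absence from a table therefore does not separate a stable gene from a noisy or an untested one. Kidney identity could be checked in mouse only through changed genes: all 14 proximal tubule markers were listed on day 5, and macrophage and fibroblast markers were listed as well, so the tissue held other cells too. In RNA from whole kidney, fewer cells of a type and less RNA per cell cannot be told apart.

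In the mouse kidney these enzymes mostly fell. On day 2, 37 of the 47 listed members fell and 10 rose, a share of 78.7% fallen, where 41.7% of all entries of that table fell and 58.3% rose. On day 5, 47 of 56 fell and 9 rose, or 83.9% fallen, where 39.1% of all entries fell and 60.9% rose. The median log2 fold change of the listed members was -1.43 on day 2 and -1.68 on day 5, against 1.03 and 1.14 for all entries of the same tables. Acomys listed fewer members, among fewer entries: 1765 on day 2 and 2500 on day 5, against 3915 and 5365 in mouse. Of the Acomys entries, 644 on day 2 and 1094 on day 5 had no symbol and could not be members. On day 2, 3 of 7 fell and 4 rose (42.9% fallen, median 1.42), where 10.1% of all entries fell and 89.9% rose. On day 5, 7 of 11 fell and 4 rose (63.6% fallen, median -1.36), where 21.4% of all entries fell and 78.6% rose. With FDR under 0.01 only 1 fallen and 2 risen members were left on Acomys day 5, and their median was 1.45. The smallest fall listed in the authors' deposited tables was -0.74 on mouse day 2 and -0.72 on mouse day 5. For Acomys it was -1.23 on day 2 and -1.12 on day 5, so smaller falls were not listed there. The medians of the mouse members lay below these Acomys values, but falls of that size need not have been listed in Acomys. Ces2c at -1.88 on Acomys day 5 only just passed, at FDR 0.048, in the authors' deposited table. Of the 132 protein-coding mouse genes that carry these family names in RefSeq, 60 were listed on either day in mouse. The remaining listed member was the pseudogene Ces2d-ps. The share listed among all RefSeq protein-coding genes was not computed, so 60 of 132 cannot be called high or low.

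**Figure D1:**
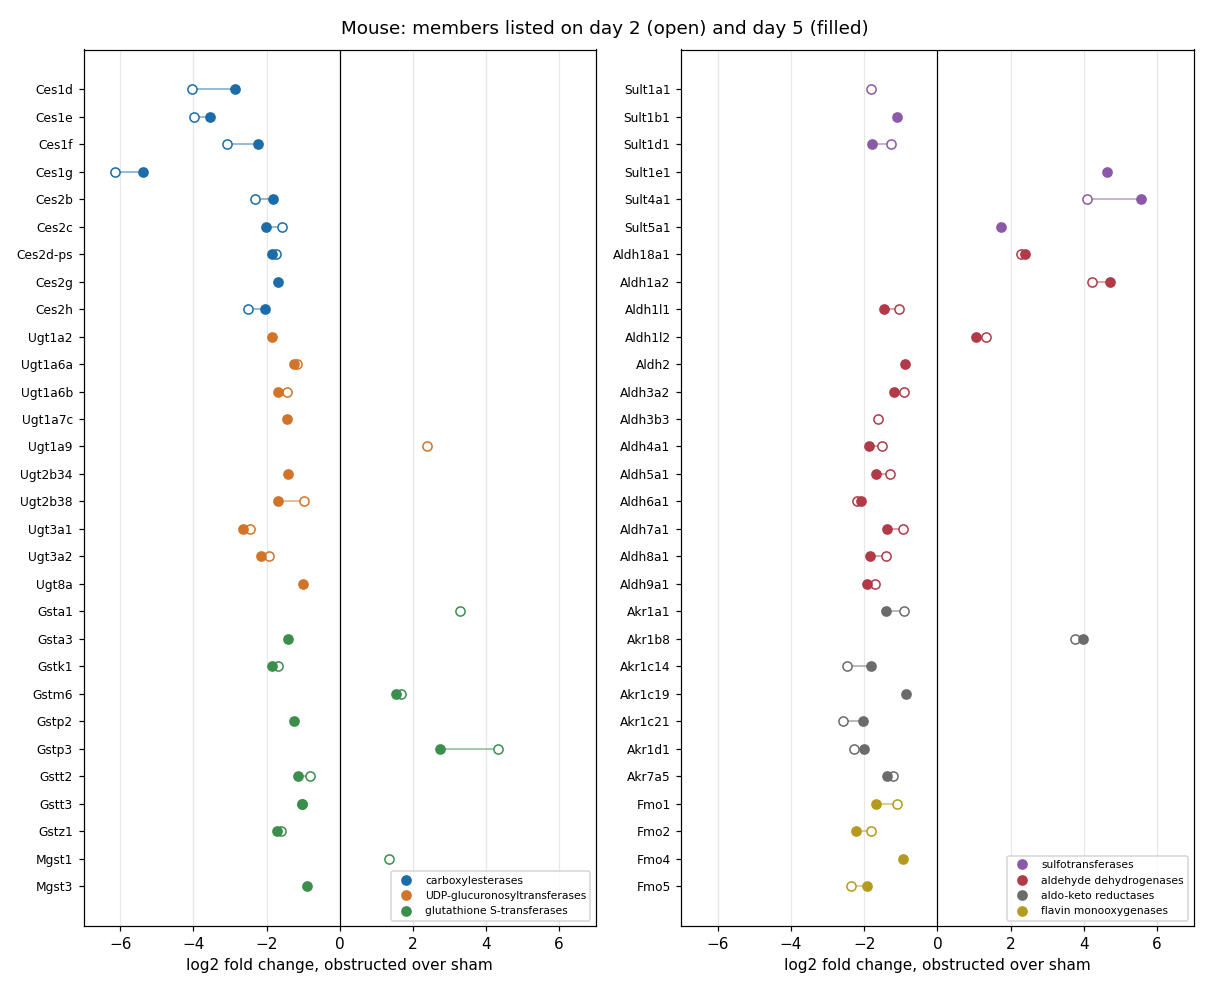
Log2 fold change (x axis, obstructed over sham) of 60 of the 61 members listed in mouse, with an open circle for day 2, a filled circle for day 5, and a line where both were listed; colours mark the families. All carboxylesterases and flavin monooxygenases lie left of 0, while the glutathione S-transferases, sulfotransferases, aldehyde dehydrogenases and aldo-keto reductases have members on both sides.

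Carboxylesterases gave the steepest falls. All 8 listed on mouse day 2 and all 9 listed on mouse day 5 fell, with medians of -2.79 and -2.05. Ces1g, a lipid and xenobiotic ester hydrolase, stood at -6.14 on day 2 (70.7-fold lower, FDR 3.3e-07) and -5.37 on day 5 (41.4-fold lower, FDR 2.6e-07) in the authors' deposited tables. It held place 2 from the bottom among 3915 entries on day 2 and place 5 among 5365 on day 5. Its RefSeq neighbours Ces1d, Ces1e and Ces1f form an unbroken row with it, and all of them fell on both days. Ces1d, which hydrolyses triacylglycerol, was at -4.02 on day 2 (FDR 1.6e-06) and -2.87 on day 5 (FDR 7.8e-06) in the authors' deposited tables. Ces1e was at -3.97 and -3.54 and Ces1f at -3.08 and -2.23 in the authors' deposited tables. For each of these 4 the day 5 value was nearer to 0 than the day 2 value, a difference that was not tested.

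In the Ces2 cluster the falls were smaller. The authors' deposited tables gave Ces2b at -2.32 on day 2 and -1.83 on day 5, and Ces2c at -1.59 and -2.01. Ces2h was at -2.50 and -2.05 and the pseudogene Ces2d-ps at -1.74 and -1.84 in the authors' deposited tables, both at a mean expression (logCPM) under 1. Ces2g was listed only on day 5, at -1.69 in the authors' deposited table. In mouse 11 of the 19 RefSeq genes of the family were not listed, among them Ces1a, Ces1b and Ces1c, which lie beside Ces1d. Genes of the 2 clusters are close paralogues, so reads may have been split between them.

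In Acomys all listed carboxylesterases fell too, 2 on day 2 and 4 on day 5, where 10.1% and 21.4% of all entries fell. Ces1d was at -2.06 on day 2 (FDR 0.00093, logCPM 8.19) and -1.36 on day 5 (FDR 0.023) in the authors' deposited tables. The authors' deposited day 5 table also held Ces1e at -2.15 (FDR 0.031) and Ces2c at -1.88 (FDR 0.048). Ces5a, known from cats as a carboxylesterase secreted into urine, was listed in Acomys only, at -1.44 on day 2 (FDR 0.046) and -1.78 on day 5 (FDR 0.0099) in the authors' deposited tables. These Acomys falls lay close to the FDR threshold except for Ces1d on day 2 and Ces5a on day 5.

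Most listed UDP-glucuronosyltransferases fell in mouse, 5 of 6 on day 2 and all 9 on day 5 (median -1.67), where 41.7% and 39.1% of all entries fell. In Acomys both members listed on day 2 and the 1 listed on day 5 rose, where 89.9% and 78.6% of all entries of those tables rose. Ugt1a7c on day 5 was the one member of the family listed in both species on the same day. Ugt1a7c was not listed on mouse day 2 and was at -1.43 on mouse day 5 (FDR 9.3e-05, logCPM 8.75) in the authors' deposited table. The Acomys locus assigned to Ugt1a7c stood at 2.27 on day 2 (4.83-fold higher, FDR 6.5e-05) and 1.78 on day 5 (3.43-fold higher, FDR 0.00066) in the authors' deposited tables. The Acomys locus assigned to Ugt1a1, the enzyme that glucuronidates bilirubin, was at 1.53 on day 2 (FDR 0.002) in the authors' deposited table, and Ugt1a1 was not listed in mouse. The Ugt1a genes have first exons of their own and share the remaining exons, so their transcripts differ only at the 5′ end and values of single Ugt1a genes are uncertain in both species.

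The other Ugt1a genes of mouse were mostly down. Ugt1a6a, which acts on phenols, was at -1.17 on day 2 and -1.24 on day 5, and its near copy Ugt1a6b at -1.43 and -1.67, in the authors' deposited tables. Ugt1a2 was listed on day 5 only, at -1.84 in the authors' deposited table. The exception was Ugt1a9, at 2.38 on day 2 (FDR 0.0053, logCPM 0.37) in the authors' deposited table and not listed on day 5. Outside that locus the steepest falls of the family were those of Ugt3a1 and its neighbour Ugt3a2, whose human counterparts use sugars other than glucuronic acid. Ugt3a1 was at -2.44 on day 2 and -2.64 on day 5 (FDR 0.00012) in the authors' deposited tables. Ugt3a2 was at -1.92 and -2.15 (FDR 2.9e-05), at a logCPM of 9.30, in the authors' deposited tables. Ugt2b38 was at -0.98 and -1.69 in the authors' deposited tables. Ugt2b34 (-1.42) and Ugt8a (-0.99), which makes galactosylceramide, were listed on day 5 only in the authors' deposited table.

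Glutathione S-transferases were the most mixed family in mouse on day 2, with 4 risen and 4 fallen. By day 5 the listed members stood at 2 risen and 7 fallen. Gstp3, a pi-class enzyme, was at 4.32 on day 2 (20.0-fold higher, FDR 5.4e-06) and 2.73 on day 5 (FDR 0.00016) in the authors' deposited tables. Its RefSeq neighbour Gstp2 was at -1.24 on day 5 (FDR 0.034) in the authors' deposited table, and the third gene of that row, Gstp1, was not listed. Gsta1, an alpha-class enzyme, was at 3.29 on day 2 (9.80-fold higher, FDR 3.8e-05) in the authors' deposited table and not listed on day 5. Another alpha-class gene, Gsta3, was at -1.42 on day 5 (FDR 6.9e-05) in the authors' deposited table and not listed on day 2. Gstm6 was at 1.69 and 1.55 in the authors' deposited tables, the only listed gene in a row of 7 mu-class genes.

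The 2 listed microsomal genes also differed, since Mgst1 rose by 1.36 on day 2 (FDR 0.00047) and Mgst3 fell by 0.90 on day 5 (FDR 0.0029) in the authors' deposited tables, each listed on 1 day. Of the soluble kappa, theta and zeta classes, Gstk1, Gstz1, Gstt2 and Gstt3 fell on both days, while the theta genes Gstt1 and Gstt4 were not listed. Gstk1, an enzyme of mitochondria and peroxisomes, was at -1.69 and -1.84 (FDR 6.5e-07) in the authors' deposited tables. Gstz1, which isomerises maleylacetoacetate in tyrosine breakdown, was at -1.60 and -1.70, Gstt2 at -0.81 and -1.13 and Gstt3 at -1.02 on each day in the authors' deposited tables. In Acomys the one listed transferase was Gsta4, which conjugates the lipid peroxidation product hydroxynonenal, at -1.58 on day 5 (FDR 0.020) in the authors' deposited table, and Gsta4 was not listed in mouse. Members of the pi, mu and alpha classes are close paralogues and their separate values are uncertain.

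Among the sulfotransferases of mouse 1 rose and 2 fell on day 2, and 3 rose and 2 fell on day 5. Sult4a1, a brain sulfotransferase without an established substrate, was at 4.08 on day 2 (16.9-fold higher, FDR 3.0e-05) and 5.55 on day 5 (46.9-fold higher, FDR 1.4e-06) in the authors' deposited tables, the highest day 5 value of any member. Sult1e1, the oestrogen sulfotransferase, was at 4.64 on day 5 (FDR 0.012) in the authors' deposited table, at a logCPM of only -2.24. Sult1b1 and Sult1d1, its RefSeq neighbours, fell: the authors' deposited tables gave Sult1d1, which sulfates catecholamines, at -1.27 on day 2 and -1.80 on day 5 and Sult1b1 at -1.11 on day 5 (FDR 0.040). Sult5a1 was at 1.75 on day 5 and Sult1a1, the phenol sulfotransferase, at -1.82 on day 2 in the authors' deposited tables. Acomys listed 1 member, Sult2b1, a hydroxysteroid and cholesterol sulfotransferase, at 1.42 on day 2 (FDR 0.024) in the authors' deposited table. None of the 8 Sult2a genes of RefSeq was listed in mouse.

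Among the aldehyde dehydrogenases, on each mouse day 9 of 12 listed members fell and 3 rose, where 41.7% and 39.1% of all entries fell. The 3 that rose were the same on both days: Aldh1a2, Aldh18a1 and Aldh1l2. Aldh1a2, which makes retinoic acid from retinaldehyde, was at 4.22 on day 2 (18.6-fold higher, FDR 7.3e-07) and 4.73 on day 5 (26.5-fold higher, FDR 1.8e-07) in the authors' deposited tables. Aldh18a1, which makes the proline precursor pyrroline-5-carboxylate from glutamate, was at 2.28 (FDR 2.2e-06) and 2.38 (FDR 8.1e-07) in the authors' deposited tables. Aldh4a1, which breaks pyrroline-5-carboxylate down in the mitochondrion, was at -1.52 (FDR 4.1e-06) and -1.86 (FDR 3.7e-07) in the authors' deposited tables. The folate pair diverged as well. Aldh1l2, the mitochondrial formyltetrahydrofolate dehydrogenase, was at 1.33 (FDR 0.0032) and 1.05 (FDR 0.022), and the cytosolic enzyme Aldh1l1 at -1.04 (FDR 0.0017) and -1.46 (FDR 1.5e-05), in the authors' deposited tables.

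The aldehyde dehydrogenases that fell in mouse included enzymes of several catabolic pathways. Aldh6a1, of valine and pyrimidine breakdown, was at -2.21 on day 2 and -2.08 on day 5 in the authors' deposited tables. Aldh9a1, of carnitine synthesis, was at -1.70 and -1.91, and Aldh8a1, of tryptophan breakdown by the kynurenine path, at -1.40 and -1.84 in the authors' deposited tables. The authors' deposited tables further gave Aldh5a1, succinic semialdehyde dehydrogenase, at -1.29 and -1.69, Aldh7a1, of lysine breakdown, at -0.93 and -1.39, and Aldh3a2, the fatty aldehyde dehydrogenase, at -0.92 and -1.18. Aldh2, which oxidises acetaldehyde in mitochondria, was listed only on day 5, at -0.87 in the authors' deposited table, and Aldh3b3 only on day 2, at -1.61. Aldh1a1 and Aldh1a3, the other retinaldehyde dehydrogenases, were not listed in mouse.

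In Acomys the listed aldehyde dehydrogenases were all of the Aldh1a group. Aldh1a2 was at 1.45 on day 5 (2.74-fold higher, FDR 0.0054) in the authors' deposited table and not listed on day 2. Aldh1a3 was at 2.04 on day 5 (4.11-fold higher, FDR 0.032) in the authors' deposited table. The locus assigned to Aldh1a7, a rodent copy of Aldh1a1 and its direct neighbour in the mouse, was at -3.69 on day 2 (FDR 0.046) and -4.98 on day 5 (31.5-fold lower, FDR 0.011, logCPM 1.60) in the authors' deposited tables. That was the steepest fall of any Acomys member on either day. Whether that locus was kept apart from an Acomys Aldh1a1 transcript is not known.

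Of the RefSeq promoter windows (GRCm38.p6, 250 bases before to 50 after a gene's start), 56 matched 48 of the 61 mouse members. They were searched on both strands for the core of the antioxidant response element, TGACNNNGC, the site of the stress regulator NRF2. It was found in 5 of the 56 windows (8.93%), where 12.4% of all 32851 windows hold it. The 5 genes were Aldh1a2 and Mgst1, which rose, and Gsta3, Aldh9a1 and Akr1c19, which fell. 3 of these windows are shown, with the match in capitals. Each holds a match to the core in a gene with log2 fold change and FDR above, 2 that rose and 1 that fell. Aldh1a2 lies at chr9:71215539-71215838 on the plus strand, and its match begins 112 bases before the start. Mgst1 lies at chr6:138140277-138140576, plus strand, with the match on the other strand 56 bases before the start, and Gsta3 at chr1:21240335-21240634, plus strand, with the match 121 bases before the start.
Aldh1a2: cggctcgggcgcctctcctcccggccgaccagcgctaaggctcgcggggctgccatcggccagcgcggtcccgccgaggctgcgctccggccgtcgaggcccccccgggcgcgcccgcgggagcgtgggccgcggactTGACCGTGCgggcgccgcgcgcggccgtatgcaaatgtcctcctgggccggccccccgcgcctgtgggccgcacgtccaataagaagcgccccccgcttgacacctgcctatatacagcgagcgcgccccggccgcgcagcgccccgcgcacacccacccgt
Mgst1: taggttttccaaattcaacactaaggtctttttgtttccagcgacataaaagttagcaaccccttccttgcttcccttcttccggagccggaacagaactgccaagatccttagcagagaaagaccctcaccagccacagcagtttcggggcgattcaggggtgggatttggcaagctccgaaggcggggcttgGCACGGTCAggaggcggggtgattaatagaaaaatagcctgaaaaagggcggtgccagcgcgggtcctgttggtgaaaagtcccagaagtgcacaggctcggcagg
Gsta3: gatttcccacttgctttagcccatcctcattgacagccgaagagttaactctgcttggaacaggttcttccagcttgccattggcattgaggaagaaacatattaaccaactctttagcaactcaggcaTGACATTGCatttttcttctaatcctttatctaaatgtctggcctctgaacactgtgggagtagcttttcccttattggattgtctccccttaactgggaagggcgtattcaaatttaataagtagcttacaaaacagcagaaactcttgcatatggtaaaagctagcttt

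The Aldh1a2 window is rich in G and C, whereas the Gsta3 window is not. Letters of a site for HNF4, a transcription factor of the proximal tubule (CAAAGTCCA), were in 1 window, that of Sult1b1 (1.79%, against 0.475%). The AP-1 letters TGACTCA were in 2 windows, those of Sult1b1 and Gstp2 (3.57%, against 5.20%). None of the AP-1 matches overlapped a match to the antioxidant element. A match to these letters is not a measured site, and none of these windows is from Acomys.

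Aldo-keto reductases fell with 1 exception. In mouse 5 of 6 fell on day 2 and 6 of 7 on day 5, where 41.7% and 39.1% of all entries fell. The exception, Akr1b8, a reductase of aliphatic and aromatic aldehydes related to aldose reductase, was also the member that rose on both days in both species. Akr1b8 was at 3.77 on mouse day 2 (13.6-fold higher, FDR 9.8e-08) and 3.99 on mouse day 5 (15.9-fold higher, FDR 4.0e-08) in the authors' deposited tables. The Acomys locus was at 3.02 on day 2 (8.10-fold higher, FDR 0.0015) and 2.21 on day 5 (4.62-fold higher, FDR 0.013), at a logCPM of 1.13, in the authors' deposited tables. Its RefSeq neighbours Akr1b3, Akr1b10 and Akr1b7 were not listed in mouse.

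Several reductases that act on steroids fell in mouse, while others of the Akr1c row, such as Akr1c6 and Akr1c18, were not listed. Akr1c21, a hydroxysteroid dehydrogenase, was at -2.57 on day 2 (FDR 1.3e-05) and -2.03 on day 5 (FDR 6.2e-05) in the authors' deposited tables. Akr1c14 was at -2.46 and -1.82 and Akr1d1, the steroid 5β-reductase, at -2.27 and -2.01 in the authors' deposited tables, all 3 lower on day 2 than on day 5, a difference that was not tested. Akr1a1, which makes a precursor of vitamin C in mice, was at -0.92 on day 2 and -1.40 on day 5 (FDR 9.0e-06, logCPM 10.3) in the authors' deposited tables. Akr7a5, an aldehyde reductase, was at -1.21 and -1.39, and Akr1c19 was listed on day 5 only, at -0.85, in the authors' deposited tables. No aldo-keto reductase other than Akr1b8 was listed in Acomys.

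Every listed flavin monooxygenase fell, 4 on mouse day 2, 5 on mouse day 5 and 1 on Acomys day 5. These enzymes add oxygen to nitrogen or sulfur atoms of drugs and dietary amines. Fmo2 was at -1.80 on day 2 and -2.22 on day 5 (FDR 3.3e-06), and Fmo1 at -1.10 and -1.69 (FDR 1.1e-05), in the authors' deposited tables. Fmo4 was listed on day 5 only, at -0.94 (FDR 0.027) in the authors' deposited table. Fmo5 was at -2.37 on mouse day 2 (FDR 1.2e-06) and -1.92 on mouse day 5 (FDR 2.9e-06) in the authors' deposited tables. In Acomys Fmo5 was at -1.30 on day 5 (FDR 0.031, logCPM 6.59) in the authors' deposited table. Fmo1, Fmo2 and Fmo4 lie in one RefSeq row with Fmo6, which was not listed, and Fmo5 lies elsewhere.

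**Figure D2:**
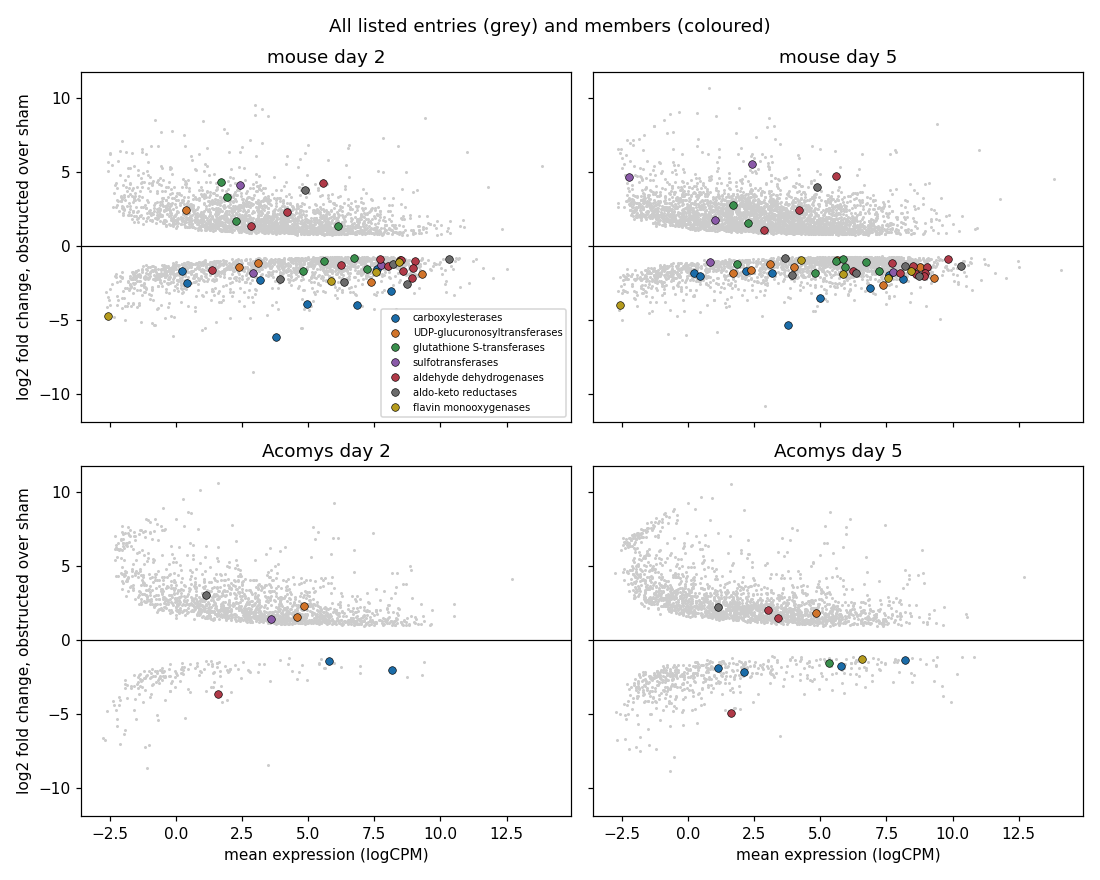
Log2 fold change (y axis, obstructed over sham) against mean expression (x axis, logCPM) for every entry of the 4 tables in grey and for the members in the colour of their family. The mouse members crowd below 0 at logCPM values above 5, and the empty band around 0, where no entry passed the FDR threshold, is wider below 0 in Acomys than in mouse.

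The 7 members listed in both species allowed a direct comparison where they were listed on the same day. The error of each fold change was rebuilt from the authors' FDR, and the difference, mouse minus Acomys, was set against a normal distribution (two-sided, p-values adjusted by Benjamini-Hochberg over every symbol that both species listed on that day). On day 2 neither of the 2 members tested passed, where 5.08% of 729 symbols did. On day 5, 2 of 7 members passed, where 5.14% of 1011 symbols did. Aldh1a2 rose more in mouse on day 5, by 4.73 ± 0.79 (rebuilt standard error) against 1.45 ± 0.42 in Acomys, a difference of 3.28 (95% interval 1.53 to 5.02, adjusted p = 0.00666). Ugt1a7c differed in direction on day 5, at -1.43 ± 0.33 in mouse and 1.78 ± 0.42 in Acomys, a difference of -3.21 (95% interval -4.26 to -2.16, adjusted p = 6.13e-07). Ugt1a7c was 1 of 25 symbols that fell in mouse and rose in Acomys on that day. Both its values had already passed FDR under 0.05 with opposite signs. Passing this test therefore largely followed from the listing and adds little support.

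For the other members the difference did not pass the threshold, which does not show that they moved alike. Ces1d fell further in mouse by 1.96 on day 2 (95% interval of the difference -3.69 to -0.24, adjusted p = 0.267) and by 1.52 on day 5 (-2.98 to -0.05, adjusted p = 0.351). For Akr1b8 the difference was 0.75 on day 2 (-1.14 to 2.65, adjusted p = 0.888) and 1.78 on day 5 (-0.06 to 3.63, adjusted p = 0.417). For Ces1e it was -1.39 on day 5 (-3.36 to 0.58, adjusted p = 0.624). The day 5 differences of Ces2c, -0.14 (-1.79 to 1.52, adjusted p = 0.977), and Fmo5, -0.62 (-1.80 to 0.56, adjusted p = 0.746), were the nearest to 0. Another setting replaced the normal by t distributions, with 12 degrees of freedom for the rebuilt errors and more for the difference. There Ces1d passed on both days (adjusted p = 0.00307 and 0.0337) and Akr1b8 on day 5 (adjusted p = 0.0379). Under the other 4 settings tried the adjusted p of Ces1d ran from 0.228 to 0.316 on day 2 and from 0.284 to 0.44 on day 5, and that of Akr1b8 on day 5 from 0.358 to 0.501. The normal gives the larger rebuilt errors and so the wider intervals. Genes were matched across species by the symbol the authors assigned, and an Acomys locus of these families may not be the counterpart of the mouse gene of that name.

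**Figure D3:**
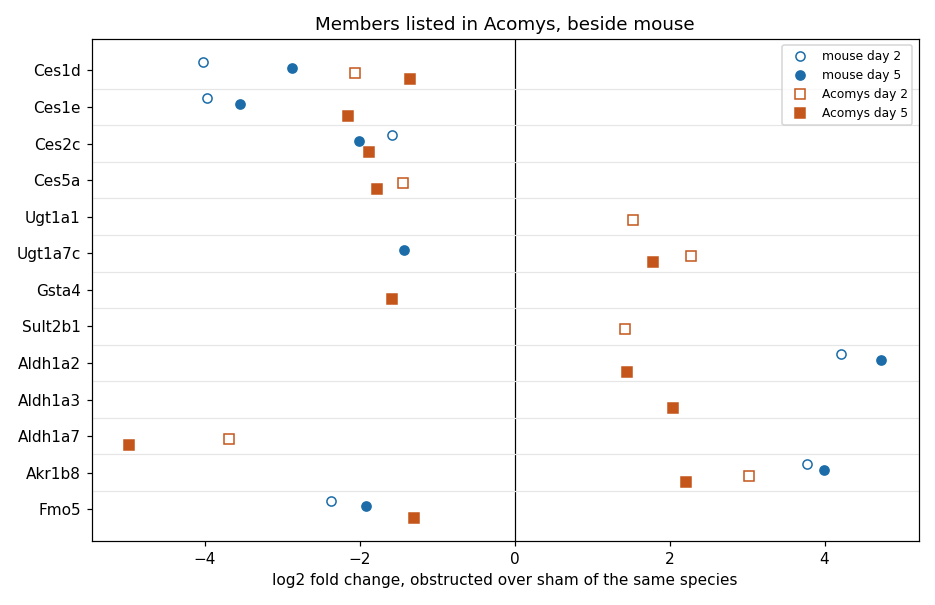
Log2 fold change (x axis, obstructed over sham of the same species) of the 13 members listed in Acomys, with orange squares for Acomys and blue circles for mouse, open on day 2 and filled on day 5; a missing symbol means that the gene was not listed in that comparison. Wherever they were listed, carboxylesterases and Fmo5 lie left of 0, Akr1b8 and Aldh1a2 lie right of 0, and Ugt1a7c lies on opposite sides.

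Lists chosen for their known function held genes that supply these reactions and genes that process the conjugates. Most of those listed in mouse fell, where 41.7% of all entries fell on day 2 and 39.1% on day 5. Of 12 genes of glutathione supply and the mercapturate pathway, which trims glutathione conjugates, 6 fell and 2 rose on mouse day 2, and 7 fell and 2 rose on day 5. Dpep1, the dipeptidase of that path, was at -2.86 and -2.11, Ggt1, its first enzyme, at -1.25 and -1.66, and Nat8, its last, at -1.20 and -1.51 in the authors' deposited tables. The cystine carrier gene Slc7a11 was at 2.04 and 1.46 and Chac1, which degrades glutathione, at 3.69 and 1.66 in the authors' deposited tables. In Acomys Dpep1, matched by assigned symbol only, had the opposite sign. It was at 1.44 on day 2 (FDR 0.012) and 1.29 on day 5 (FDR 0.024) in the authors' deposited tables. Of the symbols listed in both species, 24 of 729 on day 2 and 25 of 1011 on day 5 fell in mouse and rose in Acomys. Gclc, which limits glutathione synthesis, was at 1.11 on Acomys day 5 (FDR 0.029) in the authors' deposited table. Of 10 genes that supply UDP-glucuronate or activated sulfate, 4 fell and 1 rose on mouse day 2, and 5 fell on day 5. Papss2, a synthase of the sulfate donor, was at -2.07 and -2.05 in mouse and at -1.37 on day 5 in Acomys in the authors' deposited tables. The sulfate carrier gene Slc13a1 was at 1.34 on mouse day 2 and at 1.48 on Acomys day 5 in the authors' deposited tables.

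Of 23 other conjugating and oxidising enzymes outside these families, 9 fell and 2 rose on mouse day 2, 10 fell and 1 rose on day 5, and in Acomys 0 were listed on day 2 and 1 on day 5, Aox3 at -1.29 in the authors' deposited table. Inmt, a methyltransferase of amines, was at -4.94 and -3.79 in mouse, and the carbonyl reductase gene Cbr3 at 2.01 and 2.14, in the authors' deposited tables. Transcription factors that drive drug-handling or tubule genes were listed for 2 of 12 on mouse day 2, both fallen, and for 7 on day 5, 6 of them fallen, with Hnf4a at -1.34 and Ppara at -1.83 in the authors' deposited table. The exception was Ahr, the aryl hydrocarbon receptor, at 0.91 on day 5 in the authors' deposited table. None of the 12 was listed in Acomys on either day.

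The NRF2 list of 12 genes holds Nfe2l2 itself and textbook targets. The number of genes tested is not known, so its listed counts cannot be called high or low. On mouse day 2, 3 were listed and rose, Hmox1 at 2.11, Slc7a11 at 2.04 and Srxn1 at 1.004 in the authors' deposited table. On mouse day 5 Nqo1 was at -1.12 and Osgin1 at -1.32, beside Slc7a11 at 1.46, in the authors' deposited table. In Acomys Srxn1 was at 2.12 and 1.82 and G6pdx at 1.64 and 1.71 on days 2 and 5 in the authors' deposited tables. Nfe2l2 and Keap1 were listed in no table. Of all entries, 58.3% rose on mouse day 2, 60.9% on mouse day 5, 89.9% on Acomys day 2 and 78.6% on Acomys day 5.

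Of 20 retinoid pathway genes, chosen for the link to Aldh1a2, 2 rose and 2 fell on mouse day 2 and 4 rose and 4 fell on mouse day 5. Stra6, the retinol uptake receptor, was at 1.43 and 3.86 and Lrat, which stores retinol as esters, at -1.44 and -1.53 in the authors' deposited tables. In Acomys other genes were listed: Cyp26a1, which degrades retinoic acid, at -2.74 on day 2 and -3.30 on day 5, Cyp26b1 at -2.66 on day 5, and Crabp2, which carries retinoic acid, at 1.70 and 2.20 in the authors' deposited tables. Neither Cyp26 gene was listed in mouse.

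Markers of kidney cells moved alongside. Of all entries in mouse, 41.7% fell and 58.3% rose on day 2, and 39.1% fell and 60.9% rose on day 5. Of all Acomys entries, 10.1% fell and 89.9% rose on day 2, and 21.4% fell and 78.6% rose on day 5. All 13 listed of 14 proximal tubule markers fell on mouse day 2 (-4.27 to -1.06) and all 14 fell on mouse day 5 (-3.54 to -1.25), with medians of -1.60 and -2.11, where the listed members had -1.43 and -1.68. Loop, distal tubule and collecting duct markers fell in mouse as well, 7 of 12 on day 2 (median -2.86) and 8 of 12 on day 5 (median -2.20). In Acomys 0 of the 14 were listed on day 2 and 1 on day 5, Slc27a2 at -1.23 in the authors' deposited table, while 8 of 12 loop, distal tubule and collecting duct markers fell on day 5 (-3.61 to -1.48). Macrophage markers rose in mouse, 9 of 10 on day 2 (1.27 to 4.04) and 9 of 10 on day 5 (2.98 to 4.80), and in Acomys, 8 on day 2 (1.71 to 3.42) and 10 on day 5 (1.79 to 3.77). Fibroblast and matrix markers rose in 5 of 9 cases on mouse day 2, 9 on mouse day 5 and 8 on each Acomys day. Most Acomys entries of any kind rose as well. Urothelium markers were 2 risen and 2 fallen of 7 on mouse day 2, 2 risen on mouse day 5, and 2 and 1 risen in Acomys. Brown and white fat markers fell in mouse, 4 of 7 on day 2 (-5.56 to -2.24) and 3 of 7 on day 5, and were not listed in Acomys. Of 6 liver markers 3 fell on each mouse day, and 2 rose on Acomys day 2. The part of changed cell numbers in the members' values was not tested.

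**Figure D4:**
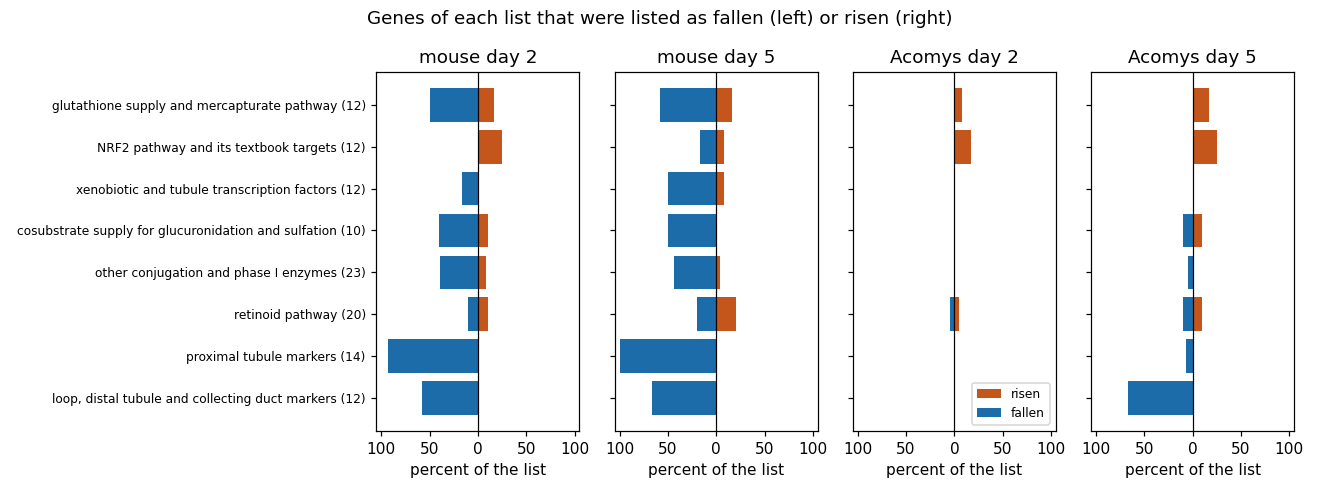
Share of each gene list (x axis, percent of the list, fallen to the left in blue and risen to the right in orange) that was listed in each comparison, with the number of genes in the list in brackets. In mouse the proximal tubule markers reach 13 and 14 of 14 fallen, in Acomys 0 and 1, and the loop, distal tubule and collecting duct markers reach 8 of 12 fallen in both species on day 5.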

How the data were processed

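Kidney RNA was sequenced in 18 libraries, 3 in each of 6 groups defined by the labels' species and treatment. The authors used Salmon, edgeR and mouse build mm9, per the submitters' processing notes. Tool versions, filters, depth and the Acomys reference: not given in the sources used here. Deposited by the authors were 4 tables of comparisons. Fold changes in the authors' tables were taken to be log2, the scale that edgeR writes. The authors' logCPM, a log2 mean, was identical on both days for all 3369 mouse and 1319 Acomys entries listed on both, and their FDR is an adjusted p-value under 0.05 throughout.

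Nothing was refitted. Members were found by symbol, and counted as fallen or risen as listed. Of the Acomys loci, 644 on day 2 and 1094 on day 5 have no symbol and could not be members. All 61 mouse members matched RefSeq by Entrez ID. Errors were rebuilt as the fold change over the z value of the raw p-value, which was recovered as FDR × rank / 10000 with 10000 genes taken as tested. The p-values rest on the spread between libraries, which the labels do not tie to separate animals. FDR or logCPM was meant to go with members listed in both species, the 5 highest and 5 lowest of each table and members with opposite directions. Some of these, such as Ces1e and Ces2c in mouse, are given by log2 fold change alone. Some members and list genes are counted but not reported singly, and a motif that was searched is not reported here. Members, lists and tests were chosen with earlier results of these data known. Python 3.11.15, pandas 2.3.3 and scipy 1.17.1 were used.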

Additional observations from a re-analysis of the deposited data

Results flagged for a closer look

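Aldh1a2 on day 5 differed between the species by a test of the difference itself, mouse minus Acomys 3.28 on the log2 scale (adjusted p = 0.00666), with rises of 4.73 in mouse and 1.45 in Acomys. Ugt1a7c on day 5 differed by -3.21 (adjusted p = 6.13e-07), with a fall of 1.43 in mouse and a rise of 1.78 in Acomys. Both passed under each of the 5 alternative settings of that test. For Ugt1a7c, passing largely followed from being listed in both species with opposite signs. The directions came from 3 obstructed and 3 sham libraries of each species, and how many single libraries show them was not analysed here.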

How the results depend on the processing

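Recomputed were the counts and medians of the listed members and the counts of members called in the species test. Of these 58 recomputed values, 52 held within 1.5 times or within their interval. With FDR under 0.01, fallen members numbered 1 on Acomys day 2 and 1 on Acomys day 5, risen members on Acomys day 5 numbered 2, and the Acomys day 5 median turned from -1.36 to 1.45, because fewer genes were left. With errors rebuilt from a t distribution of 12 degrees of freedom, the species difference was called for 1 member on day 2, in place of 0. On day 5 it was called for 4, in place of 2. An assumed 5000 or 20000 tested genes, a logCPM of at least 0 and 1 entry per symbol changed neither count. No member had more than 1 entry in a table, so keeping 1 per symbol could not change the counts or medians of listed members. An absolute log2 fold change of at least 1 could not change them in Acomys, where every listed member exceeded it. Such values count among those that held but show no robustness. No paired analysis was possible because the tables hold comparisons of groups and no values per library, and for the same reason no replicate was left out. Depth is unknown. Low expression limits Sult1e1, Ugt1a9, Ces2h and Ces2d-ps, and assignment of paralogues limits the Ugt1a, Ces, Gst, Akr1c and Aldh1a genes.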

Other observations

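Some Acomys loci without a symbol carry UniProt names of these families, so the symbol rule left them out. In the authors' deposited tables a locus named for mouse Ces2c (entry EST2C) was at -2.10 on day 2 (FDR 0.036) and -1.92 on day 5 (FDR 0.048), and a locus named for a sulfotransferase (entry ST3A1) at -1.93 on day 5 (FDR 0.024). The first fell as the Acomys carboxylesterases with a symbol did. The second fell, whereas Sult2b1, the Acomys sulfotransferase with a symbol, was at 1.42 on day 2 in the authors' deposited table.

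Partners of the aldehyde dehydrogenases of proline and folate metabolism were looked up after those values were seen. Prodh, which starts proline breakdown, was at -1.28 on mouse day 2 and -1.79 on mouse day 5, on the side of Aldh4a1, in the authors' deposited tables. Among mitochondrial folate genes Mthfd2 was at 2.67 and 1.96 and Mthfd1l at 2.64 and 2.56 in mouse, on the side of Aldh1l2, while Shmt2 was at -1.55 and -1.81, in the authors' deposited tables. In Acomys Mthfd1l was at 1.69 and 1.91 on days 2 and 5 and Shmt2 at -1.23 on day 5 in the authors' deposited tables. Pycr1, the last enzyme of proline synthesis, was listed in no table.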
